A study of Mus musculus with 48 samples.

Results

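The genes described are 44 DNA replication genes of the mouse, chosen by name for their place in the replication machinery, with earlier results of these data known and with no measured value in the rule. They were followed through a probe set, the group of short oligonucleotides that reports on a transcript, whenever a probe set named one of them alone. Of the 44, 41 had such a probe set, 29 of them with 1 probe set and 12 with 2, which gave 53 probe sets in all. Tyms (thymidylate synthase) was represented by 2 probe sets that also name the pseudogene Tyms-ps and was left out, and Pole and Orc3 were not analysed here. The 41 stand among 8251 genes tested in the same way.

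Replication starts when the origin recognition complex, encoded by the Orc genes, marks origins and the licensing factors Cdc6 and Cdt1 load the Mcm2 to Mcm7 ring onto DNA. In S phase the kinase Cdc7, Cdc45 and Mcm10 turn that ring into a running helicase. The polymerases alpha, delta and epsilon then copy the strands behind it, with the sliding clamp Pcna, its loader, the single-strand binding protein RPA, and the enzymes that join Okazaki fragments. Many of these genes are transcribed at the entry to S phase under E2F factors, so that their RNA is a usual readout of how many cells of a growing tissue, such as the early limb bud, are cycling.

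RNA was measured on Affymetrix MG-U74Av2 arrays. Pregnant mice received cadmium sulfate at 4 mg/kg or acetazolamide at 400 mg/kg, an inhibitor of carbonic anhydrase, by intraperitoneal injection on gestation day 9.5. Controls received the vehicle alone, phosphate-buffered saline (PBS) for cadmium and vegetable oil for acetazolamide. The right forelimb buds were collected 3 h or 12 h later and separated with crude trypsin into ectoderm and mesoderm, so that all groups share the trypsin step. Each of the 16 groups (2 agents and 2 vehicles, 2 tissues, 2 times) had 3 arrays, 48 in all. Tissue of several litters was pooled for RNA, while another label calls the extracts non-pooled, and the strain is not given in the sources used here. The p-values therefore measure the spread between these RNA samples. The comparisons ask which RNAs each agent altered relative to its own vehicle, in each tissue and at each time.

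The deposited values are ratios to vehicle arrays, with no level retained. Vehicle arrays 1 and 2 of each comparison are divided by their own mean and mirror each other, and vehicle array 3 is divided by itself and is 0 on the log2 scale. The identity of the tissues could thus not be checked against marker levels, nor could levels be compared between genes. In these bulk samples fewer cells of a type and less RNA per cell cannot be told apart. The median width of a replication gene's 95% confidence interval to either side was 0.27 in log2 in 12 h cadmium mesoderm and 0.53 in 12 h cadmium ectoderm, the narrowest and the widest of the 8 comparisons. The log2 ratio of the 3' to the 5' control probe sets of Gapdh, which is higher where RNA is less intact, was higher in treated than vehicle arrays by 0.41 to 0.59 in the 4 acetazolamide comparisons and by 0.49 in 12 h cadmium ectoderm. That of actin was higher by 0.23 to 0.52 in the 4 acetazolamide comparisons. The Gapdh value after cadmium rested on cadmium array 2, which stood at 1.80, and without that array the difference was -0.14. The Gapdh difference in 12 h acetazolamide mesoderm was -0.20 without acetazolamide array 2. The part of RNA integrity in the values of the replication genes was not tested.

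Promoters, taken from RefSeq on GRCm38.p6 as the 250 bases before to the 50 bases after a start site, were matched for 37 of the 41 genes. Gmnn, Mcm4, Prim2 and Rfc2 had none in the table used. An E2F-type match was searched for as TTTCCCGC, TTTCGCGC, TTTGCCGC or TTTGGCGC on both strands. It was found in 12 of 46 promoters of replication genes (26.1%) and in 744 of 32851 promoters of the whole table (2.26%). By gene these were 12 of 37 (32.4%) and 704 of 27025 (2.60%). The letters CCAAT, on either strand, were in 54.3% of the replication gene promoters and 37.4% of all promoters, the letters GGGCGG in 71.7% and 35.7%, and the letters TTTGAA in 13% and 17.9%. The searches were separate, and a GGGCGG match can share bases with an E2F-type match. A match describes the letters in the window and not the binding of a factor. Promoters are shown for the 3 genes with the smallest p in 12 h cadmium ectoderm, Pole2, Pola1 and Cdc6, and for the 3 with the smallest p in 3 h acetazolamide ectoderm, Cdc45, Pola2 and Rfc5. They are written 5′ to 3′ along the gene, with E2F-type matches in capitals. Pole2 lies at chr12:69228141-69228440 on the minus strand, Pola1 at chrX:93632106-93632405 (minus), Cdc6 at chr11:98907901-98908200 (plus), Cdc45 at chr16:18811923-18812222 (minus), Pola2 at chr19:5964157-5964456 (minus) and Rfc5 at chr5:117388974-117389273 (minus).
Pole2: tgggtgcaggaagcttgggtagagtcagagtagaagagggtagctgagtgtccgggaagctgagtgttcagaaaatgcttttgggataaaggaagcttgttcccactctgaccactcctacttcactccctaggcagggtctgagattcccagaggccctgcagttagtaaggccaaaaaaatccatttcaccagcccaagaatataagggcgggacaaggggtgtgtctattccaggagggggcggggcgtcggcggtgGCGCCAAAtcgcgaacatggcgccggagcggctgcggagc
Pola1: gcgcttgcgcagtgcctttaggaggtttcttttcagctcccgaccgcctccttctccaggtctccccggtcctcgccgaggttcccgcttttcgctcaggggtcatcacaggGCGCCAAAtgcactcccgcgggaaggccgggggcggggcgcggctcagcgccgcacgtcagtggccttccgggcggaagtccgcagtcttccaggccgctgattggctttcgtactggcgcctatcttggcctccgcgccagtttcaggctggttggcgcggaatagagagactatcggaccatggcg
Cdc6: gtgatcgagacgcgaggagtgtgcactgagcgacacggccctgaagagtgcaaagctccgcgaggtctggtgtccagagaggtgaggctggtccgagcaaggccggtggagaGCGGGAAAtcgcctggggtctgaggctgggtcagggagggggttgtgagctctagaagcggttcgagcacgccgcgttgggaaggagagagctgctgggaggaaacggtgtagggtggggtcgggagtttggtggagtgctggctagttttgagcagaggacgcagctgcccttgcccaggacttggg
Cdc45: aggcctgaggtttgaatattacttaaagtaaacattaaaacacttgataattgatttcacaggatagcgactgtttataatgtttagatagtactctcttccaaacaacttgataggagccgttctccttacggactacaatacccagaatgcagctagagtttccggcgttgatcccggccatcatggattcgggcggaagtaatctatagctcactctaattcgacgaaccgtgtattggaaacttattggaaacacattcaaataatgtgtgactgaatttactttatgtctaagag
Pola2: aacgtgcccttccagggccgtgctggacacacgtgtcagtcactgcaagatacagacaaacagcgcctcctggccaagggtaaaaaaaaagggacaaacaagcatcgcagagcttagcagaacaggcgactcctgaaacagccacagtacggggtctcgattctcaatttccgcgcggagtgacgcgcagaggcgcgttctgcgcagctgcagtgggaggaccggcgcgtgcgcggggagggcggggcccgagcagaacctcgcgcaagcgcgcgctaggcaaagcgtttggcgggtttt
Rfc5: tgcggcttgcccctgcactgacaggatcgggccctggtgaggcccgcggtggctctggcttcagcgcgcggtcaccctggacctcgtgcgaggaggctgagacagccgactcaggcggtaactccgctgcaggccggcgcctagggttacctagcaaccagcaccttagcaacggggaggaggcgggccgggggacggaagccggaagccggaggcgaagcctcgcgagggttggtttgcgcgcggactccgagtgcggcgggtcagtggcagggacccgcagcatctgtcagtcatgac
The first 3 promoters each hold 1 match, 10 bases after the start site in Pole2 and 138 bases before it in both Pola1 and Cdc6. The letters searched for are not in the windows of Cdc45, Pola2 and Rfc5. Among all 37 genes, the 12 with a match had a median log2 difference of -0.10 in 12 h cadmium ectoderm and the 25 without one -0.20, and 6 of 12 and 5 of 25 lay above 0. In 3 h acetazolamide ectoderm the medians were -0.08 with and -0.15 without a match, and in 12 h acetazolamide ectoderm 0.14 and 0.05.

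No replication gene passed the test in any comparison. Each value below is the log2 difference between the 3 treated and the 3 vehicle arrays with its standard error (±), from a limma fit over all genes with p-values adjusted by Benjamini-Hochberg, and a call needs an adjusted p under 0.05. The count was 0 of 41 in each of the 8 comparisons, against 188 of all 8251 genes (2.28%) in 12 h cadmium mesoderm, 3 (0.0364%) in 3 h acetazolamide mesoderm, 2 (0.0242%) in both 12 h cadmium ectoderm and 3 h acetazolamide ectoderm, and 0% in the remaining 4. Averaged over both tissues, 0 of 41 passed at each time, against 1.07% of all genes for cadmium at 12 h, 0.533% for acetazolamide at 3 h, 0.0242% for acetazolamide at 12 h and 0% for cadmium at 3 h. The lowest adjusted p of a replication gene was 0.109, for Pola2 in the mean of both tissues after 3 h of acetazolamide (-0.35 ± 0.10). The background is so low in 7 of the 8 comparisons that a count of 0 says little about these genes. In 12 h cadmium mesoderm, where 2.28% were called, about 1 of 41 genes would be called at that rate.

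**Figure D1:**
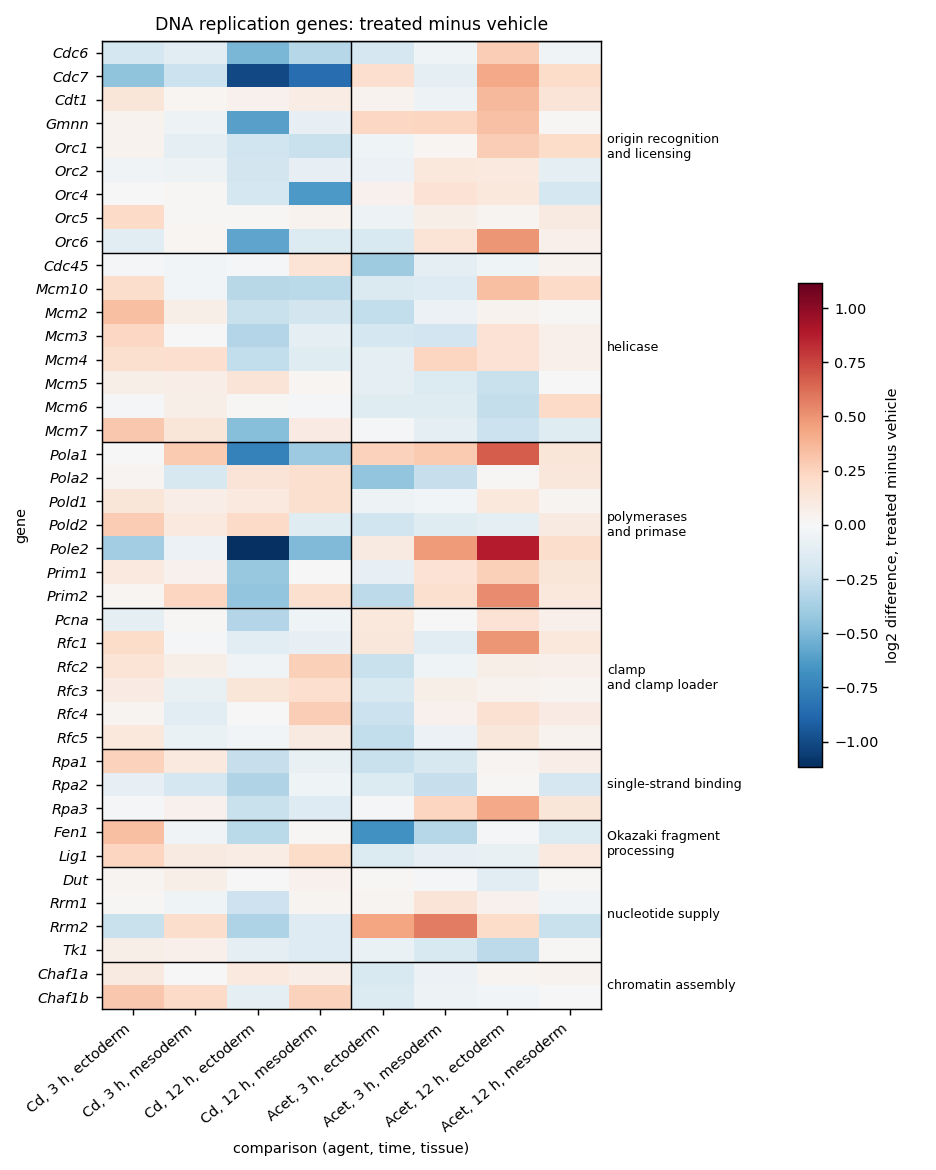
Log2 difference between treated and vehicle arrays (colour, n = 3 arrays per group) for each of the 41 replication genes (rows, by role) in the 8 comparisons (columns; Cd, cadmium; Acet, acetazolamide). The strongest blue cells are Pole2 and Cdc7 after 12 h of cadmium in ectoderm (-1.12 and -1.01) and the strongest red cell is Pole2 after 12 h of acetazolamide in ectoderm (0.88), none of which passed the test.

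Most origin and licensing genes lay below 0 after 12 h of cadmium. Cdc7, the kinase that fires licensed origins, read -0.02, -0.90 and -1.73 on cadmium arrays 1 to 3 in mesoderm, against 0.31 and -0.40 on vehicle arrays 1 and 2. The groups overlapped, because cadmium array 1 lay among the vehicle arrays. The difference was -0.85 ± 0.31 (adjusted p = 0.159), and without cadmium array 1 it was -1.23 (adjusted p = 0.0184), a call, while without array 3 it was -0.41. Leaving out cadmium array 1 raised the number called among all 8251 genes from 188 to 361. Cdc7 also stood at -1.01 in 12 h cadmium ectoderm, on arrays at -1.13, 0.18 and -2.20. Orc4, a subunit of the origin recognition complex, read -0.65, -0.57 and -0.72 in 12 h cadmium mesoderm against vehicle arrays at -0.11 and 0.10. All 3 cadmium arrays of Orc4 were below all vehicle arrays, close to each other, and the difference was -0.64 ± 0.24, a 1.56-fold lower ratio (95% interval -1.13 to -0.16; adjusted p = 0.169). In 12 h cadmium ectoderm Orc4 stood at -0.20.

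Cdc6, which loads the helicase together with Cdt1, read -0.26, -0.13 and -1.20 in 12 h cadmium ectoderm against vehicle arrays at -0.31 and 0.26. Its difference of -0.51 ± 0.26 (adjusted p = 0.983) rested on cadmium array 3 and was -0.17 without that array. In mesoderm Cdc6 stood at -0.32 ± 0.13 (adjusted p = 0.257). Of the 9 origin and licensing genes measured, 2 lay above 0 in each tissue at 12 h after cadmium, with medians of -0.22 in ectoderm and -0.15 in mesoderm. Gmnn, which encodes the licensing inhibitor geminin, stood at -0.61 and Orc6 at -0.59 in ectoderm, and at -0.09 and -0.15 in mesoderm. Cdt1 and Orc5 were the 2 above 0 in both tissues, at no more than 0.09.

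Acetazolamide left the same group on the other side of 0 at 12 h in ectoderm, where 9 of 9 genes lay above 0 with a median of 0.28, and 6 of 9 in mesoderm with a median of 0.06. Cdt1, the licensing factor degraded in S phase, read 0.34, 0.53 and 0.09 on the acetazolamide arrays of 12 h ectoderm against vehicle arrays at -0.44 and 0.33. The groups overlapped and the difference was 0.36 ± 0.17 (adjusted p = 0.632). Orc6 stood at 0.49 there. Cdc7 read 0.61, -0.59 and 1.18, so that its 0.42 is a mean of opposed arrays. In 12 h acetazolamide mesoderm, Orc1 read 0.35, 0.08 and 0.17 against -0.06 and 0.06, all above the vehicle arrays by a small margin, with a difference of 0.20 ± 0.16. At 3 h after cadmium, Orc5 in ectoderm read 0.21, 0.26 and 0.15 against 0.14 and -0.16, which separated the groups by 0.01, and differed by 0.21 ± 0.11 (adjusted p = 0.999). Cdc7 was the lowest replication gene at 3 h of cadmium in both tissues. It read 0.07, -0.21 and -1.26 in ectoderm against 0.26 and -0.32, for -0.45 ± 0.38, and the value was -0.04 without array 3. In mesoderm it read -0.30, -0.52 and 0.03 against -0.34 and 0.27, for -0.24 ± 0.32.

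**Figure D2:**
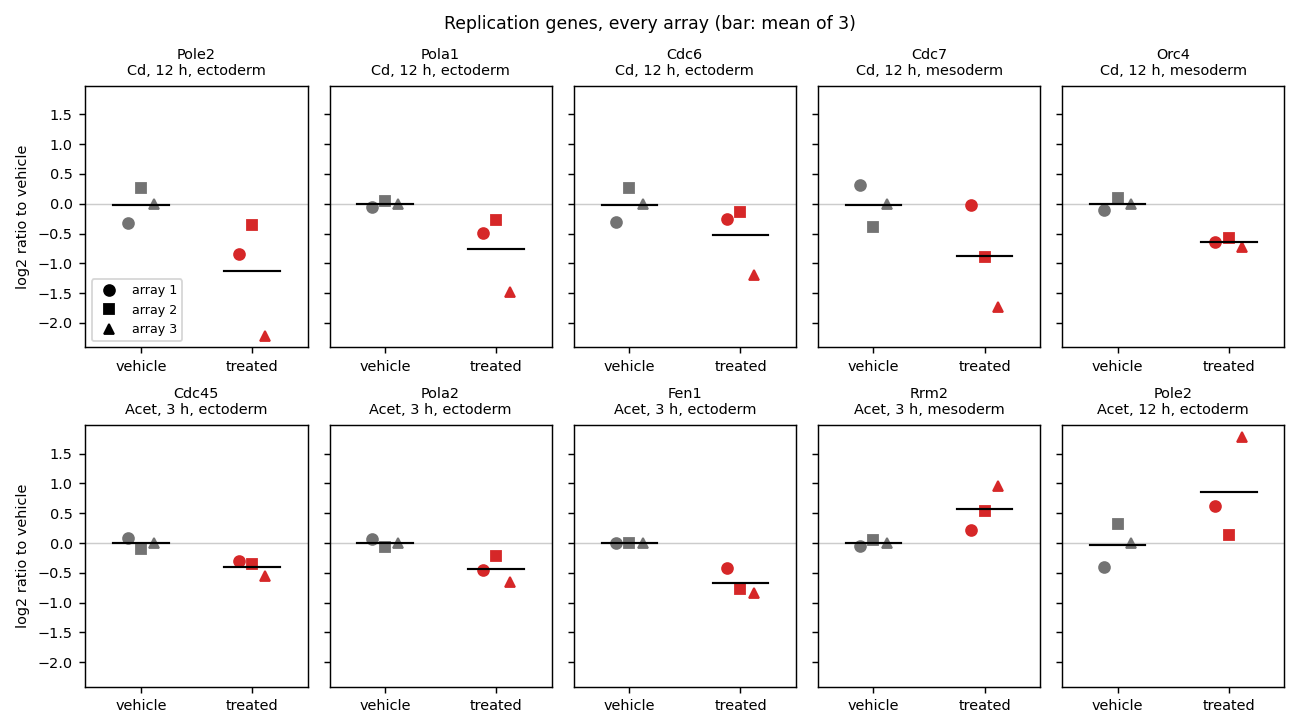
Log2 ratio to vehicle on each array for 9 replication genes in 10 panels, with vehicle arrays in grey, treated arrays in red, the array number as the symbol, and the mean of 3 arrays as a bar. The treated arrays of Orc4, Cdc45 and Fen1 lie close together and apart from the vehicle arrays, while the values of Pole2, Pola1, Cdc6 and Cdc7 after cadmium are lowest on array 3.

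Genes of the helicase lay lower than vehicle throughout 3 h acetazolamide ectoderm, where 0 of 8 were above 0 and the median was -0.15. Cdc45, the subunit that joins the Mcm ring to form the active helicase, read -0.31, -0.35 and -0.55 against vehicle arrays at 0.09 and -0.09. The groups did not overlap, and the difference of -0.40 ± 0.13 had the smallest p of the 41 genes in that comparison (adjusted p = 0.502). In mesoderm at the same time Cdc45 stood at -0.11, and 1 of 8 helicase genes was above 0 (Mcm4 at 0.24). Mcm3, a subunit of the ring, read -0.11, -0.16 and -0.38 there against -0.09 and 0.08, below all vehicle arrays, and differed by -0.21 ± 0.13 (adjusted p = 0.802).

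After cadmium in ectoderm, the ring genes Mcm2, Mcm3, Mcm4 and Mcm7 lay above 0 at 3 h and below 0 at 12 h. Mcm5 lay above 0 at both times (0.06 and 0.15), and Mcm6 stood at -0.01 and 0.01. At 3 h, 6 of 8 helicase genes lay above 0 with a median of 0.19, and Mcm2 read 0.26, 0.25 and 0.48 against vehicle arrays at -0.21 and 0.18, for a difference of 0.34 ± 0.15 (adjusted p = 0.999). At 12 h, 2 of 8 lay above 0 with a median of -0.26, and Mcm7 stood at -0.48 on arrays at -0.25, -1.04 and -0.15. Mcm2 and Mcm3 were also lowest on array 2 at 12 h, at -0.74 and -0.81. Mcm4 in 3 h cadmium mesoderm read 0.08, 0.31 and 0.16 against -0.14 and 0.13, for 0.19 ± 0.12, with overlapping groups. At 12 h of acetazolamide in mesoderm Mcm6 was the highest of the 41 genes at 0.22 ± 0.16, on arrays at 0.02, 0.56 and 0.06 against 0.05 and -0.05. Mcm10, which helps to activate the helicase, followed at 0.21 ± 0.19 on arrays at 0.51, 0.15 and -0.01 against 0.01 and -0.01. For both genes a single array held the value.

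The polymerase genes held the widest range of all. Pole2, the second subunit of the leading-strand polymerase epsilon, read -0.84, -0.36 and -2.21 on the cadmium arrays of 12 h ectoderm against vehicle arrays at -0.32 and 0.26. All 3 cadmium arrays were below all vehicle arrays, array 2 narrowly so, and the difference was -1.12 ± 0.54, a 2.17-fold lower ratio (95% interval -2.21 to -0.02; adjusted p = 0.983). Without array 3 it was -0.57. Pola1, the catalytic subunit of polymerase alpha that starts each fragment, read -0.49, -0.28 and -1.49 against -0.05 and 0.05, again without overlap, for -0.75 ± 0.38 (adjusted p = 0.983) and -0.38 without array 3. Both were also below 0 in 12 h cadmium mesoderm, Pole2 at -0.49 and Pola1 at -0.41 ± 0.19 (adjusted p = 0.341).

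The other polymerase and primase genes lay on both sides of 0. Pold2, an accessory subunit of polymerase delta, was the highest replication gene of 12 h cadmium ectoderm at 0.22 ± 0.27, on arrays at 0.37, -0.19 and 0.45 against 0.11 and -0.12. Pola2, the accessory subunit of polymerase alpha, stood at 0.14 there. These 2 genes, Pold1, Prim1 and Prim2 were lowest on cadmium array 2, and Pole2 and Pola1 on array 3. The primase genes Prim1 and Prim2 stood at -0.42 and -0.44 in ectoderm and at 0.01 and 0.18 in mesoderm. Over the 7 polymerase and primase genes measured the median was -0.42 in ectoderm, with 3 above 0, and 0.01 in mesoderm, with 4 above 0.

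With acetazolamide the order was turned at 12 h in ectoderm. Pole2 read 0.63, 0.14 and 1.78 against vehicle arrays at -0.40 and 0.31, the highest of the 41 genes at 0.88 ± 0.46 (adjusted p = 0.645), and 0.43 without array 3. Pola1 read 0.87, 0.24 and 0.84 against -0.36 and 0.29, for 0.68 ± 0.32 (adjusted p = 0.632). In both genes acetazolamide array 2 lay within the vehicle range. In 12 h mesoderm 7 of 7 polymerase genes were above 0, between 0.03 and 0.20. At 3 h, Pola2 went the other way: it read -0.46, -0.22 and -0.65 in ectoderm against 0.07 and -0.07, without overlap, for -0.44 ± 0.14 (adjusted p = 0.502). In mesoderm it read -0.09, -0.24 and -0.47 against 0.14 and -0.15, for -0.26 ± 0.14 (adjusted p = 0.745). Its 2 probe sets stood at -0.24 and -0.64 in ectoderm. At 3 h of cadmium in mesoderm Pola2 was at -0.18 ± 0.11, on arrays at -0.24, -0.15 and -0.15 against 0.13 and -0.14, and Pola1 was the highest gene at 0.29 ± 0.20, on arrays at 0.31, 0.55 and 0.00 against -0.16 and 0.14.

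The clamp gene Pcna and the 5 genes of its loader ranged from -0.32 to 0.49 over the 8 comparisons. In 12 h acetazolamide ectoderm 6 of 6 were above 0 with a median of 0.15, led by Rfc1, the large loader subunit, at 0.67, 0.46 and 0.21 against vehicle arrays at 0.08 and -0.21. The groups did not overlap, and the difference was 0.49 ± 0.23 (adjusted p = 0.632). Its 2 probe sets gave 0.73 and 0.26, and in 3 h acetazolamide mesoderm they gave 0.23 and -0.45, the widest gap among the replication genes. In 12 h acetazolamide mesoderm 6 of 6 were again above 0, at 0.11 or less. Rfc5, a small loader subunit, read -0.53, -0.21 and -0.09 in 3 h acetazolamide ectoderm against 0.08 and -0.09, for -0.28 ± 0.10 (adjusted p = 0.579), and array 3 lay just below the lowest vehicle array. Rfc4 was the highest replication gene of 12 h cadmium mesoderm at 0.27 ± 0.15, on arrays at 0.46, 0.28 and 0.06 against -0.16 and 0.14. Pcna, which is also a p53 target, stood at -0.32 in 12 h cadmium ectoderm and -0.04 in mesoderm. The 3 subunits of RPA, which coats single-stranded DNA, were all below 0 in 12 h cadmium ectoderm, between -0.34 and -0.25, and in 3 h acetazolamide ectoderm, between -0.25 and -0.02.

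Fen1 and Lig1, the flap nuclease and the ligase that finish Okazaki fragments, differed from each other. Fen1 read -0.41, -0.78 and -0.84 in 3 h acetazolamide ectoderm, with vehicle arrays within 0.01 of 0. It was the lowest of the 41 genes there, below all vehicle arrays, at -0.68 ± 0.27, a 1.60-fold lower ratio (95% interval -1.23 to -0.12; adjusted p = 0.657). In mesoderm it read 0.16, -0.16 and -0.97 against -0.03 and 0.03, for -0.32 ± 0.27, and the sign turned without array 3 (0.0043). In 3 h cadmium ectoderm Fen1 was the highest gene at 0.34 ± 0.25, on arrays at 0.13, -0.05 and 0.93 against vehicle arrays within 0.01 of 0, and stood at 0.04 without array 3. Lig1 read 0.11, 0.10 and 0.50 in 3 h cadmium ectoderm against -0.06 and 0.05, for 0.24 ± 0.10 (adjusted p = 0.999). Its 2 probe sets gave -0.02 and 0.49 there. In 12 h cadmium mesoderm Lig1 read 0.38, 0.19 and 0.03 against -0.02 and 0.02, for 0.20 ± 0.08 (adjusted p = 0.236), above all vehicle arrays by less than 0.01 on array 3, and its probe sets gave the same 0.20.

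Among the genes of nucleotide supply, Rrm2, the small subunit of ribonucleotide reductase that is made in S phase, was the highest of the 41 genes at 3 h of acetazolamide in both tissues. In mesoderm it read 0.22, 0.53 and 0.96 against -0.05 and 0.05, above all vehicle arrays, for 0.57 ± 0.27 (adjusted p = 0.655). In ectoderm it read 0.20, -0.21 and 1.30 against -0.19 and 0.17, for 0.44 ± 0.27, and without array 3 the value was 0.0047. At 12 h of acetazolamide in mesoderm it was the lowest, at -0.12, -0.43 and -0.22 against -0.26 and 0.22, for -0.25 ± 0.28. Tk1, the thymidine kinase of the salvage pathway, read -0.25, -0.32 and -0.33 in 12 h acetazolamide ectoderm against 0.03 and -0.05. These arrays lay close together below all vehicle arrays, and the difference was -0.29 ± 0.14 (adjusted p = 0.640). Dut, which removes dUTP, had the smallest spread of all replication genes and stayed between -0.13 and 0.07 in the 8 comparisons. Of the 2 measured subunits of the histone chaperone CAF-1, which packs new DNA, Chaf1b in 3 h cadmium mesoderm read 0.18, 0.34 and 0.12 against 0.02 and -0.03, above all vehicle arrays, for 0.21 ± 0.14.

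As a list, the 41 genes leaned below 0 after 12 h of cadmium in ectoderm, with a median of -0.22 and 11 of 41 above 0, where the median of all genes was 0.03 and 57.6% were above 0. The medians were 0.06 (28 above 0) and 0.02 (24) at 3 h of cadmium in ectoderm and mesoderm, and -0.04 (19) in 12 h cadmium mesoderm. With acetazolamide they were -0.10 (11) and -0.05 (16) at 3 h, and 0.11 (31) and 0.05 (32) at 12 h, in ectoderm and mesoderm. The median of all genes stayed between -0.04 and 0.03 in the 8 comparisons, and the share of all genes above 0 between 38.9% and 57.6%. These genes are transcribed together, so their number above 0 is a description with no test.

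**Figure D3:**
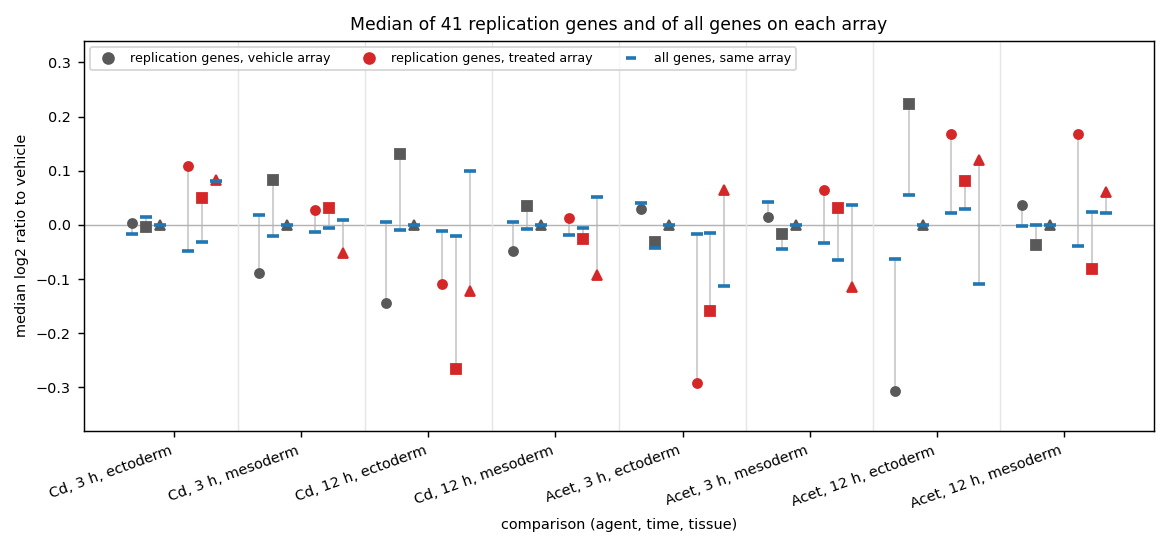
Median log2 ratio to vehicle of the 41 replication genes (grey, vehicle arrays; red, treated arrays; circle, square and triangle for arrays 1, 2 and 3) and of all 8251 genes on the same array (blue dashes), by comparison. In 12 h ectoderm the vehicle arrays 1 and 2 lie at -0.14 and 0.13 for PBS and at -0.31 and 0.22 for oil, the cadmium arrays between -0.27 and -0.11, and the acetazolamide arrays between 0.08 and 0.17.

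The list also varied between arrays of 1 group. In 12 h ectoderm the medians of the 41 genes were -0.14 and 0.13 on PBS arrays 1 and 2, and -0.11, -0.27 and -0.12 on the cadmium arrays. They were -0.31 and 0.22 on oil arrays 1 and 2, and 0.17, 0.08 and 0.12 on the acetazolamide arrays. The cadmium median of -0.22 was -0.09 without PBS array 2, -0.10 without cadmium array 2, the array of high Gapdh ratio, and -0.13 without array 3. The acetazolamide median of 0.11 was -0.01 without oil array 1 and 0.26 without oil array 2. The list thus differed between 2 vehicle arrays of 12 h ectoderm by at least as much as between the treated and vehicle groups.

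The same was seen inside 3 h acetazolamide ectoderm, where the medians were -0.29, -0.16 and 0.06 on arrays 1 to 3. Several genes, picked after their values were seen, made that step larger. Pole2 read -0.93, -0.31 and 1.54, Gmnn -0.54, -0.22 and 1.44, and Orc6 -0.86, -0.44 and 0.78. Their differences from vehicle were 0.10, 0.23 and -0.17, which are means of opposed arrays. The residual SD of the fit had a median of 0.234 over the 41 genes and 0.181 over all genes. Cdc7, Pole2, Orc4 and Fen1 had the largest, at percentiles 99.3, 98.6, 97.2 and 95.4 of all genes, and they supply many of the extreme values. Between the 2 probe sets of the 12 genes that had them, 43 of 96 pairs of differences had opposite signs, with a median gap of 0.144.

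Counted at an unadjusted p under 0.05, 6 replication genes were lower and 2 higher in 12 h cadmium mesoderm, against 7.13% and 6.73% of all genes. The 6 were Cdc7, Orc4, Cdc6, Orc1, Pola1 and Mcm10, of which 4 serve origins and licensing, and the 2 were Lig1 and Rfc3. In 12 h cadmium ectoderm 1 was lower (Pole2) and 0 higher, against 3.37% and 1.08%. At 3 h of cadmium 0 were lower and 2 higher (Lig1 and Mcm2) in ectoderm, against 1.19% and 2.13%, and 0 in either direction in mesoderm, against 1.72% and 1.38%. Acetazolamide at 3 h gave 4 lower (Cdc45, Pola2, Rfc5 and Fen1) and 0 higher in ectoderm, against 3.49% and 3.35%, and 0 lower and 1 higher (Rrm2) in mesoderm, against 2.76% and 4.59%. At 12 h it gave 0 lower and 3 higher (Rfc1, Pola1 and Cdt1) in ectoderm, against 2.19% and 5.67%, and 0 in both directions in mesoderm, against 0.230% and 0.558%. For 41 genes the background of 7.13% in 12 h cadmium mesoderm amounts to about 3 genes. The 6 lower genes there (14.6% of the 41) were above that share. The 4 lower genes in 3 h acetazolamide ectoderm (9.76%) were above their own background of 3.49%, and most other counts were near theirs. These genes are transcribed together, and the excess was not tested.

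Full separation of the 3 treated from the 3 vehicle arrays was also counted. Vehicle array 3 is 0 by construction and vehicle arrays 1 and 2 mirror each other. Their range is thus a limited measure of spread, and separation is a description with no test. After 12 h of cadmium 3 genes were separated below (Mcm7, Pola1 and Pole2) and 0 above in ectoderm, against 5.72% and 4.33% of all genes, and 2 below (Orc4 and Rpa1) and 3 above (Pold1, Rfc5 and Lig1) in mesoderm, against 9.51% and 9.79%. At 3 h of cadmium 1 was below (Orc2) and 7 above in ectoderm, against 3.82% and 5.58%. The 7 were Mcm2, Mcm3, Mcm7, Rfc3, Rpa1, Lig1 and Orc5. In mesoderm 2 were below (Pola2 and Rfc5) and 1 above (Chaf1b), against 4.17% and 5.45%. With acetazolamide at 3 h, 6 were below (Mcm2, Mcm3, Pola2, Rfc5, Fen1 and Cdc45) and 1 above (Cdt1) in ectoderm, against 9.07% and 4.76%. In mesoderm 3 were below (Mcm3, Lig1 and Tk1) and 7 above, against 6.59% and 9.33%, the 7 being Mcm4, Rrm2, Pola1, Pole2, Gmnn, Orc2 and Orc6. At 12 h, 2 were below (Mcm5 and Tk1) and 4 above (Prim1, Prim2, Rfc1 and Rpa3) in ectoderm, against 8.31% and 8.48%, and 0 below and 1 above (Orc1) in mesoderm, against 2.47% and 3.43%.

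The differences between times, tissues and agents were tested in the same fit, and 0 of 41 genes passed in any of them. For time, the background was 0.0121% of all genes for cadmium in ectoderm, 0.461% for cadmium in mesoderm and 0% for acetazolamide in both tissues. In ectoderm the effect of cadmium at 12 h was below that at 3 h for 35 of 41 genes, while it was above for 56.3% of all genes. The 3 ring genes Mcm3 (-0.56 ± 0.23), Mcm7 (-0.78 ± 0.35) and Mcm2 (-0.59 ± 0.28) had an unadjusted p under 0.05 in that direction, against 2.75% of all genes, each with an adjusted p of 0.971. At 12 h all 3 were lowest on cadmium array 2, the array of high Gapdh ratio, at -0.81, -1.04 and -0.74. On the other cadmium arrays they lay between -0.25 and 0.14. For acetazolamide in ectoderm 35 of 41 went the other way, as did 55.9% of all genes. Rfc5 (0.40 ± 0.15) and Prim2 (0.82 ± 0.37) had an unadjusted p under 0.05 in that direction, against 2.55% of all genes. The tissue differences of the 2 agents at the 2 times had a background of 0%. After 12 h of cadmium 34 of 41 genes were lower in ectoderm than in mesoderm relative to vehicle, while 53.2% of all genes were higher. The smallest p of the 41 was that of Mcm7 (-0.57 ± 0.33, 95% interval -1.25 to 0.10).

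Between agents, the background was 0.0121% in 3 h ectoderm, 0% in 3 h mesoderm, 0% in 12 h ectoderm and 0.0121% in 12 h mesoderm. In 12 h ectoderm the cadmium effect was below the acetazolamide effect by 1.43 ± 0.50 for Pola1 (adjusted p = 0.319) and by 2.00 ± 0.70 for Pole2 (adjusted p = 0.325). These 2 passed when all arrays were weighted equally. With Orc6, Cdc6, Prim2 and Gmnn they made up 6 genes at an unadjusted p under 0.05 in that direction, against 8.59% of all genes. In 3 h ectoderm 7 genes were higher with cadmium than with acetazolamide at that p, against 3.94%, namely Rfc5, Mcm2, Fen1, Lig1, Pola2, Mcm3 and Cdc45. Rfc5 led them at 0.39 ± 0.13 (adjusted p = 0.643), and Fen1 had the widest difference at 1.01 ± 0.37.

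**Figure D4:**
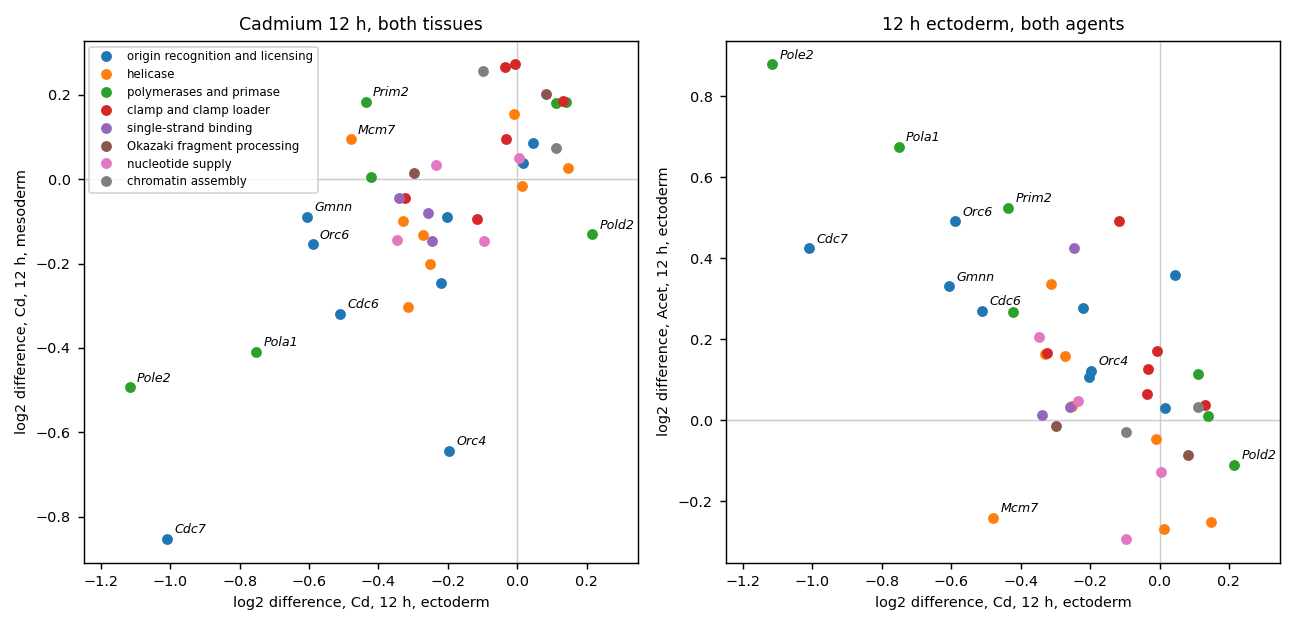
Log2 differences of the 41 replication genes, coloured by role, after 12 h of cadmium in ectoderm (x axis of both panels) against mesoderm (left, y axis) and against 12 h of acetazolamide in ectoderm (right, y axis). Pole2, Cdc7 and Pola1 lie at the lower left of the first panel and at the upper left of the second.

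Across the 41 genes, the 12 h cadmium differences in ectoderm and mesoderm had a Pearson r of 0.67 and a Spearman rho of 0.57, where all genes gave 0.57 and 0.49, and 20 genes were below 0 in both tissues. The 12 h ectoderm differences of cadmium and acetazolamide had an r of -0.68 and a rho of -0.59, where all genes gave -0.46 and -0.50, and 25 genes were below 0 with cadmium and above 0 with acetazolamide. These pairs share no arrays, but the genes are not independent replicates, and the negative relation was present across the whole array. For cadmium in ectoderm, 3 h and 12 h differences had an r of 0.56 and a rho of 0.34 in the 41 genes, and 0.13 and 0.08 in all genes. At 3 h the values of Cdc7 and Pole2 (-0.45 and -0.39) rested on array 3, where they read -1.26 and -1.50, while Pole2 read 0.02 and 0.28 on arrays 1 and 2.

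Further genes of the pathway were taken from lists drawn up by function. Of 26 measured other replication genes (topoisomerases, histone chaperones and fork factors among them), 0 passed in any of the 8 comparisons. Their median after 12 h of cadmium was -0.20 in ectoderm with 6 of 26 above 0 and -0.10 in mesoderm with 10 above 0, and 0.14 in 12 h acetazolamide ectoderm. Dbf4, the partner of Cdc7, stood at -0.19 ± 0.06 in 12 h cadmium mesoderm (adjusted p = 0.132), and Hells, a chromatin remodeller, at -0.61 ± 0.26 (adjusted p = 0.260). Top1, Asf1a and Nme1 were also lower there at an unadjusted p under 0.05. Higher at that p were Rnaseh2a at 0.38 ± 0.13 (adjusted p = 0.1355) and Pold4 at 0.23 ± 0.09 (adjusted p = 0.189). Asf1b, a histone chaperone, stood at -0.50 ± 0.13 in 3 h acetazolamide ectoderm (adjusted p = 0.238), and Rrm2b stood higher there, at 0.41 ± 0.19 (adjusted p = 0.699).

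Of 11 measured replication checkpoint genes, 1 passed in the 8 comparisons. Hus1, part of the clamp that loads at damaged DNA, fell by 0.64 ± 0.09 in 12 h cadmium mesoderm (adjusted p = 6.00e-05), and 0 rose. In that comparison 2.28% of all genes passed. The list median was -0.37 in 12 h cadmium ectoderm, with 1 of 11 above 0, and 0.42 in 12 h acetazolamide ectoderm, with 9 of 11 above 0. In the former Wee1, the kinase that holds cells before mitosis, stood at -1.10 ± 0.40 and Topbp1, which activates the checkpoint kinase, at -0.81 ± 0.32, and neither passed (adjusted p = 0.816 and 0.953). Of 22 measured regulators of the step from G1 to S phase, 2 rose and 2 fell in 12 h cadmium mesoderm, against the same 2.28% of all genes. In the other 7 comparisons of an agent with its vehicle 0 of the 22 passed. In the mean of both tissues after 12 h of cadmium, and in the difference between 12 h and 3 h of cadmium in mesoderm, 2 were called higher and 1 lower. The shares of all genes called were 1.07% and 0.461%. The p53 targets Ccng1 and Cdkn1a, the latter the inhibitor p21 of S phase kinases, rose, by 1.94 ± 0.27 and 1.57 ± 0.20 (adjusted p = 6.52e-05 and 4.86e-05). Ccnd1, which encodes cyclin D1, fell by 0.34 ± 0.06 (adjusted p = 0.00134), and Rbl1, the pocket protein p107 and itself an E2F target, fell by 0.94 ± 0.24 (adjusted p = 0.0364). Ccna2, the S phase cyclin A2, stood at -0.32 ± 0.11 in mesoderm (adjusted p = 0.138) and at -0.66 ± 0.22 in ectoderm (adjusted p = 0.758).

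Markers of blood cells and vessels leaned above 0 after 12 h of cadmium in both tissues. The 41 replication genes leaned below 0 in ectoderm, while in mesoderm their median was -0.04 with 19 of 41 above 0. Red blood cell markers were above 0 for 8 of 9 genes in both tissues, with medians of 0.23 in ectoderm and 0.15 in mesoderm, and endothelial markers for 8 of 8 in both, with medians of 0.16 and 0.18. Of all genes, 57.6% were above 0 in ectoderm and 54.4% in mesoderm. In mesoderm the heme synthesis gene Alas2 rose by 0.53 ± 0.12 (adjusted p = 0.0169), and the endothelial receptor genes Tie1 and Eng rose by 0.63 ± 0.12 and 0.58 ± 0.16 (adjusted p = 0.00187 and 0.0424). The list medians on the cadmium arrays of 12 h ectoderm were 0.12, -0.06 and 0.51 for red blood cells and 0.03, 0.11 and 0.20 for endothelium. Both were highest on array 3, as was the median of all genes (-0.01, -0.02 and 0.10). Pole2, Pola1, Cdc6 and Cdc7 were lowest on array 3, but the replication genes as a list were not. Their medians were -0.11, -0.27 and -0.12, lowest on array 2, where the red blood cell median was also lowest. In 3 h acetazolamide ectoderm 0 of 9 red blood cell markers and 0 of 8 endothelial markers were above 0, against 38.9% of all genes. Surface ectoderm markers had medians of -0.08 in 12 h cadmium ectoderm and 0.14 in 12 h acetazolamide ectoderm, and limb mesoderm markers 0.03 and 0.14. Within these lists the ectoderm markers Trp63 and Cldn6 stood at -1.004 ± 0.42 and -0.75 ± 0.30 in 12 h cadmium ectoderm and the mesoderm marker Twist1 at 0.88 ± 0.41, none of which passed. They were the markers of these lists with an unadjusted p under 0.05 there, while both list medians stayed near 0. The surface ectoderm list had medians of 0.05, -0.28 and 0.10 on the 3 cadmium arrays. Those of the limb mesoderm list were 0.02, -0.07 and 0.16. In 3 h cadmium mesoderm 14 of 14 surface ectoderm markers were above 0, against 50.3% of all genes, with a median of 0.23 and 0 called. The part of cell composition in the replication gene values was not tested, and the values hold no levels from which a share of any cell type could be read.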

How the data were processed

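The 48 arrays were deposited by the authors as 1 table of ratios for 12488 probe sets. The deposited ratio values are each array over vehicle arrays of the same comparison, per the values, and the steps before it are not given in the sources used here. Ratios were converted to log2, 66 control probe sets were set aside, and each gene took the mean of its own probe sets (10833 probe sets, 8251 genes), as the platform annotation names them. A single limma 3.58.1 fit in R 4.3.3 held 16 denominator means and 8 agent effects (24 residual degrees of freedom), with 1 precision weight per comparison. The inference that treated arrays 1 and 2 share a denominator and array 3 has its own rests on the numbering. P-values were adjusted by Benjamini-Hochberg over all genes with a threshold of 0.05. Intervals are at 95%. The number of arrays limits the precision, and no level allowed a filter on dim probe sets. The fit was tested on simulated data. Array values are given for the 3 genes with the smallest p and for both extremes in each comparison. The members and lists were chosen with earlier results of these data known.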

Additional observations from a re-analysis of the deposited data

Results flagged for a closer look

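The median of the 41 replication genes minus the median of all genes, averaged over the treated arrays, was -0.19 in 12 h cadmium ectoderm and 0.080 in 3 h cadmium ectoderm, with all 3 arrays of each on opposite sides of 0. The 3 h cadmium arrays stood at 0.16, 0.08 and 0.0014, so that array 3 lay almost at 0. Against the same -0.19, the averaged value was 0.14 in 12 h acetazolamide ectoderm, again with all 3 arrays on the other side. The difference between these medians was not tested. The vehicle arrays of both 12 h ectoderm groups spread over a similar range.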

How the results depend on the processing

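Over 36 gene values and 396 alternative values of them, 392 kept their direction and their side of the threshold. Fen1 in 3 h acetazolamide mesoderm ran from -0.50 to 0.0043 with single arrays left out, and reversed without array 3 of either group. The count of called genes stayed at 0 in 20 of 24 results. In 12 h cadmium mesoderm it was 1 (Orc4, adjusted p = 0.0493) with the array number as a replicate block in place of the denominator block, and 0 to 2 when single arrays were left out (Cdc6 and Cdc7 without cadmium array 1). In the mean of both tissues it was 0 to 3 after 12 h of cadmium (Pole2, Cdc6 and Cdc7 without ectoderm PBS array 1, Cdc7 without ectoderm cadmium array 2, Cdc6 without mesoderm cadmium array 1) and 0 to 1 after 3 h of acetazolamide (Pola2 without mesoderm oil array 2). The genes called over the whole array were 436, 456 and 154 in the cadmium settings, in that order, and 137 in the acetazolamide setting. For cadmium against acetazolamide in 12 h ectoderm it was 2 without weights (Pola1 and Pole2), where 297 of all genes were called. Each setting that called a replication gene also called more of all genes than the main fit. The causes were not tested. With single arrays left out, list medians ran from 0.067 to 0.10 in 3 h cadmium ectoderm, -0.040 to 0.082 in 3 h cadmium mesoderm, -0.29 to -0.089 in 12 h cadmium ectoderm and -0.010 to 0.26 in 12 h acetazolamide ectoderm. Array numbers are not shown to pair samples: differences between arrays 1 and 2 of treated and vehicle groups correlated from -0.20 to 0.65. The replicate block changed no other count. Background correction and normalization could not be varied, since only ratios exist in the table used.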
